A study of Mus musculus with 30 samples.

Results

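The genes described here encode the enzymes of the tricarboxylic acid (TCA) cycle and the enzymes and carriers through which glutamine and other substrates enter and leave it. The list of 34 genes is set by name, and its rule uses no measured value, although it was drawn up with earlier results of these data known. It holds 16 genes of TCA cycle enzymes, among them Aco1, Idh1 and Mdh1, which encode cytosolic counterparts of enzymes of the cycle, 3 malic enzymes, 3 enzymes of glutamine and glutamate, 4 transaminases, 3 amino acid carriers of the plasma membrane and 5 carriers of the inner mitochondrial membrane. All 34 were present among the 52630 genes of the time-course table and the 55487 genes of the passage table, and 33 of them passed the filter on low counts in each. The gene left out was Me3, a mitochondrial NADP-dependent malic enzyme, whose highest normalized read count in any library was 10.0.

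RNA-seq was performed on E14tg2a, an established line of mouse embryonic stem cells (ESCs), and every library came from this line, with no genetic change given in the labels. In the time course, ESCs in Serum/LIF were compared with ESCs moved to EMM for 3, 9 or 24 h, with 3 libraries per group. EMM is the Serum/LIF medium with galactose in place of glucose and pyruvate, so that serum, glutamine, nonessential amino acids and the cytokine LIF were present in both media. The Serum/LIF libraries are labelled as 0 h, although a protocol label gives them 24 h in Serum/LIF. In the passage experiment, ESCs were kept for 10 (P10) or 20 (P20) passages in Serum/LIF (SL), EMM or 2i/LIF (2iL), again with 3 libraries per group. The 2i/LIF medium holds LIF and inhibitors of the kinases MEK and GSK3 and supports a naive pluripotent state. The comparisons address how transcript levels differ in a medium that limits glycolysis, within hours and after many passages. The time course holds no Serum/LIF group at 3 h or 9 h. Effects of EMM, of a change of medium and of the time since it cannot be told apart there. Such counts are shares of all RNA in bulk, so fewer cells of a type and less RNA per cell cannot be told apart.

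The TCA cycle oxidizes acetyl-CoA in the mitochondrial matrix and delivers the electrons to the respiratory chain as NADH and reduced flavin. Glutamine can feed the cycle: carriers of the plasma membrane bring it into the cell, glutaminase converts it to glutamate, and glutamate dehydrogenase or a transaminase converts glutamate to the cycle intermediate α-ketoglutarate. In ESCs, glutamine is a known source of α-ketoglutarate, which is also a cofactor of demethylases of histones and DNA. The malate-aspartate shuttle joins the cytosolic and mitochondrial malate dehydrogenases and aspartate aminotransferases through 2 kinds of carrier and moves reducing equivalents into the matrix.

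Total counts ran from 24074132 to 35301962 per library in the time course and from 6944904 to 27912928 in the passage experiment, and the least deep library was P20 2iL replicate 1. Between libraries of a group, the chi-square of the counts per gene was 57.6 and 49.6 for P20 2iL replicate 1 against the other 2 libraries and 14.7 between those 2. In the same way EMM 24 h replicate 1 (14.1 and 12.6, beside 2.89), EMM 9 h replicate 3 (10.6 and 11.5, beside 2.5) and P10 2iL replicate 1 (20.4 and 30.1, beside 6.52) stood apart, and results without them are given below. The 6 ESC markers (Pou5f1, Nanog, Sox2, Zfp42, Esrrb and Dppa5a) each had a group mean over 10 normalized read counts in all 10 groups, and their sum ran from 63294 to 68699 in P10 SL, from 77382 to 108939 in P10 EMM, from 66933 to 73719.6 in P20 SL and from 58317 to 59932 in P20 EMM, so that EMM was above SL at P10 and below it at P20. A summed list of 6 fibroblast markers stood at 2225 to 7104 normalized read counts in the SL libraries of the passage experiment, against 142 to 364 in EMM and 45.0 to 98.7 in 2iL. Postn and Lum were at 0 in every P10 EMM library. In the time course the same sum was 1802 to 1890 in Serum/LIF and 1252 to 1473 at 24 h. The summed 5 trophectoderm markers (Cdx2, Elf5, Krt7, Tfap2c and Gata3) ran from 1450 to 1491 in Serum/LIF and from 2024 to 2066 at 24 h. Their sum ran from 1093 to 1199 in P10 SL and 270 to 334 in P10 EMM. Elf5 was at 0 in every library of EMM 24 h, P10 EMM and P20 EMM. A sum does not give the direction of each gene, and the paper reports Cdx2 and Elf5 as lowered in EMM. The summed 6 primitive endoderm markers ran from 331 to 341 in Serum/LIF and from 442 to 469 at 24 h, and from 174 to 225 in P10 SL and 68.6 to 91.6 in P10 EMM. At P20 the EMM and SL libraries overlapped for both lists, with trophectoderm sums of 953 to 1049 and 989 to 1218 and primitive endoderm sums of 200.01 to 306 and 208 to 289. The part of these marker differences in the results below was not tested. The 2 experiments were counted and normalized separately and are not compared by level.

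The 28 members with an entry among the RefSeq promoters (GRCm38.p6) were searched for 3 motifs in windows of the 250 bases before the start site, on both strands. The C/EBP-ATF element TGATGNAA, a motif of amino acid response promoters, was found in Got1 and Me3, and in 3.45% of all 32851 windows. The E-box CACGTG was found in Ogdh, Slc25a1 and Slc25a13, and in 6.02% of all windows. The antioxidant element TGACNNNGC was found in Dlst, Idh3g, Slc38a2 and Sucla2, and in 10.2% of all windows. These are matches of letters only. The 250 bases upstream of 3 members are shown, since Idh2 had the largest rise at 24 h and Gpt2 and Slc38a2 were among the genes that fell at 3 h: Idh2 (chr7:80115351-80115600, minus strand), Gpt2 (chr8:85492326-85492575, plus strand) and Slc38a2 (chr15:96699729-96699978, minus strand). They are written 5′ to 3′ on the strand of the gene, and capitals mark a match to the antioxidant element, which only the Slc38a2 sequence of these 3 holds.
Idh2: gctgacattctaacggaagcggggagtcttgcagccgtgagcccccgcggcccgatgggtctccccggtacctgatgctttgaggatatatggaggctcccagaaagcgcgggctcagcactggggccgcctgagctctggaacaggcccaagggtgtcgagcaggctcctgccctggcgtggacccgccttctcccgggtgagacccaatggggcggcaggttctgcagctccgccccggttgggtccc
Gpt2: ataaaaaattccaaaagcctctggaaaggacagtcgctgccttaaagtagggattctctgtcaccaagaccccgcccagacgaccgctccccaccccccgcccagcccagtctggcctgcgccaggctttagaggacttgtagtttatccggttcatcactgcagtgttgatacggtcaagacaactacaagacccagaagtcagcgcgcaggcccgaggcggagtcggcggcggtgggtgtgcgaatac
Slc38a2: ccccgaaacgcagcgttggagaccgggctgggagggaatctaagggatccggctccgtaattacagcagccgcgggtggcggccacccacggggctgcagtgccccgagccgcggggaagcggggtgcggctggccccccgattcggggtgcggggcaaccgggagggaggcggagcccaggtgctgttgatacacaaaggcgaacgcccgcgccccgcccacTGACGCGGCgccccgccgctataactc

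To place the members beside each other, counts were divided by the merged exon length of each gene and scaled to a common library size. On this per-length scale, Glud1, encoding glutamate dehydrogenase, led in Serum/LIF with a level of 157 ± 6.85 (SD, n = 3), next to Glul, encoding glutamine synthetase, at 145.7 ± 5.0. The libraries of these 2 genes overlapped, so their order is not set. Got1, the cytosolic aspartate aminotransferase, followed with a level of 104 ± 2.59, overlapping with the mitochondrial malate dehydrogenase Mdh2 at 102 ± 2.38. The cytosolic malate dehydrogenase Mdh1 stood at 78.4 ± 1.67, below both. The 3 subunit genes of the NAD-dependent isocitrate dehydrogenase, which oxidizes isocitrate to α-ketoglutarate in the cycle, had levels of 40.7 ± 0.789 for Idh3a, 38.7 ± 1.30 for Idh3b and 52.3 ± 1.34 for Idh3g. The lowest levels per length among the tested members were those of the malic enzyme Me1 (4.57 ± 0.133), the dicarboxylate carrier Slc25a10 (3.70 ± 0.0928) and the cytosolic alanine aminotransferase Gpt (2.55 ± 0.132), and the libraries of these 3 did not overlap. Idh2 moved up from a level of 42.1 ± 1.17 to 105 ± 1.37 at 24 h, where it lay below Glul (115 ± 3.83) and overlapped with Mdh2 (101 ± 5.66). The order between genes depends on the exon length taken, which is 17236 bases for Slc38a1 and 2588 for Idh2.

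**Figure D1:**
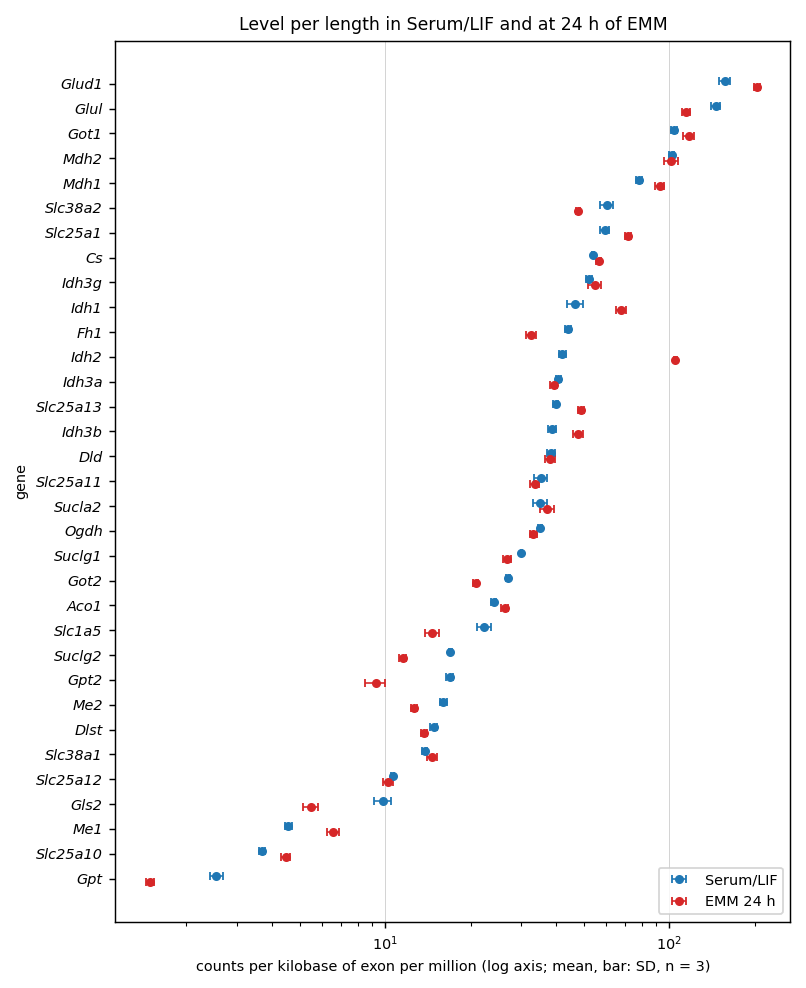
Level per length (counts per kilobase of merged exon at a common library size, log axis) of the 33 tested members in Serum/LIF (blue) and at 24 h of EMM (red), ordered by the Serum/LIF mean; points are means and bars the SD of 3 libraries. Levels run from 2.55 ± 0.132 for Gpt to 157 ± 6.85 for Glud1 in Serum/LIF, and Idh2 shows the widest gap between the groups.

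After 3 h in EMM, the alanine aminotransferase gene Gpt2, the carrier genes Slc1a5 and Slc38a2 and the glutaminase gene Gls2 were lower, while most TCA cycle enzymes did not pass the test. By edgeR's quasi-likelihood test (adjusted p under 0.01), 6 of the 33 members rose and 4 fell, beside 16.3% and 18.2% of all 16049 genes tested. The median log2 fold change of the members was -0.01, as was that of all genes. Among the TCA cycle enzymes, 3 of 16 were higher (Idh2, Idh3b and the cytosolic Mdh1) and the other 13 were not called. Scaling by library totals alone left 3 members higher and 10 lower, beside 12% and 24% of all genes, and moved both medians alike, to -0.08. The balance of directions at 3 h thereby depends on the scaling for all genes as for the members, and Idh3b, Mdh1 and Slc25a13 were then not called.

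Gpt2, the mitochondrial alanine aminotransferase (chr8:85492576-85527560, plus strand), was the member with the largest change at 3 h. It read 2732, 2871 and 2855 normalized read counts in the 3 Serum/LIF libraries and 1354, 1305 and 1300.2 at 3 h. Every 3 h library was below every Serum/LIF library (log2 fold change -1.10 ± 0.05 SE, adjusted p = 4.1e-10). It was the 1 member past a log2 fold change of 1 in size, which 1.7% of all genes exceeded upwards and 2.52% downwards. Gpt2 then read 1925, 1969 and 1949 at 9 h and 1530.2, 1674 and 1429 at 24 h, with log2 fold changes of -0.53 ± 0.05 and -0.87 ± 0.05 against Serum/LIF. The groups did not overlap at these times either, and the 24 h libraries were higher than those of 3 h (log2 fold change 0.23 ± 0.05 SE, adjusted p = 0.00168).

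Of the 3 member carriers of the plasma membrane, Slc1a5 and Slc38a2 fell at 3 h and Slc38a1 rose, beside 18.2% of all genes lower and 16.3% higher. Slc1a5, a sodium-dependent exchanger of neutral amino acids that is a main entry route for glutamine (chr7:16781340-16798274, plus strand), read 2848, 2844 and 2581 in Serum/LIF and 1606, 1502 and 1462 at 3 h (log2 fold change -0.86 ± 0.05 SE, adjusted p = 8.54e-09). The 3 h libraries lay far below those of Serum/LIF, with no overlap. Its counts were 2028, 2011 and 1954 at 9 h and 1915, 1706 and 1805 at 24 h. These were again lower than Serum/LIF in every library (log2 fold changes -0.46 ± 0.05 and -0.61 ± 0.05), but higher at 24 h than at 3 h (log2 fold change 0.25 ± 0.05 SE, adjusted p = 0.00118). Slc38a2, a sodium-coupled transporter of neutral amino acids (chr15:96687392-96699730, minus strand), fell from 15085, 15467 and 16704 in Serum/LIF to 12099.8, 11487 and 11863 at 3 h (log2 fold change -0.41 ± 0.04 SE, adjusted p = 7.86e-07). It stayed within a narrow range afterwards, with log2 fold changes of -0.30 ± 0.04 at 9 h and -0.34 ± 0.04 at 24 h, and its 24 h and 3 h levels were not called apart (log2 fold change 0.08 ± 0.04, adjusted p = 0.107). Slc38a1, a transporter of the same family as Slc38a2, rose at 3 h from 7181, 6891 and 7008 to 8604, 7924 and 8428 (log2 fold change 0.24 ± 0.05 SE, adjusted p = 0.000521). It was not called at 9 h or 24 h (log2 fold changes 0.13 ± 0.05 and 0.09 ± 0.05).

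The enzymes that make, split and oxidize glutamine and glutamate moved apart. Gls2, a glutaminase (chr10:128194457-128210004, plus strand), read 1018, 1074 and 938 in Serum/LIF, 733, 734 and 794 at 3 h, 545, 562 and 565 at 9 h and 588, 522 and 576 at 24 h. Every EMM library was below every Serum/LIF library, and the 9 h and 24 h libraries were below those of 3 h. The log2 fold changes were -0.42 ± 0.06, -0.86 ± 0.06 and -0.85 ± 0.06 (adjusted p = 5.05e-05, 4.57e-08 and 3.52e-08). Exons of Gls2 overlap those of Spryd4 on the opposite strand by 97 bases, and Spryd4 had a mean count of 612 beside 721 for Gls2, so that reads could have been shared where strand was not used in counting. Glul, which makes glutamine from glutamate and ammonia (chr1:153899944-153909723, plus strand), read 14806, 14287 and 13826 in Serum/LIF and 12813, 13601 and 13626 at 3 h. It was not called at 3 h (adjusted p = 0.07). At 9 h it had fallen to 8080.2, 8395 and 7664 (log2 fold change -0.83 ± 0.04 SE, adjusted p = 1.43e-09), and at 24 h it read 11505, 11491 and 10846 (log2 fold change -0.34 ± 0.04 SE, adjusted p = 8.15e-06). The 9 h libraries were the lowest of the 4 groups, below those of 24 h. Glud1, which converts glutamate to α-ketoglutarate (chr14:34310727-34345265, plus strand), read 18563, 20022 and 20055 in Serum/LIF, 17585, 18122 and 18433 at 3 h and 25543, 25757 and 24602 at 24 h. The 3 h libraries were the lowest, without a call against Serum/LIF (adjusted p = 0.024), and the 24 h libraries were above all others (log2 fold change 0.37 ± 0.04 SE, adjusted p = 1.17e-06). Between 3 h and 24 h, Glud1 rose by a log2 fold change of 0.49 ± 0.04 (adjusted p = 1.36e-07).

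**Figure D2:**
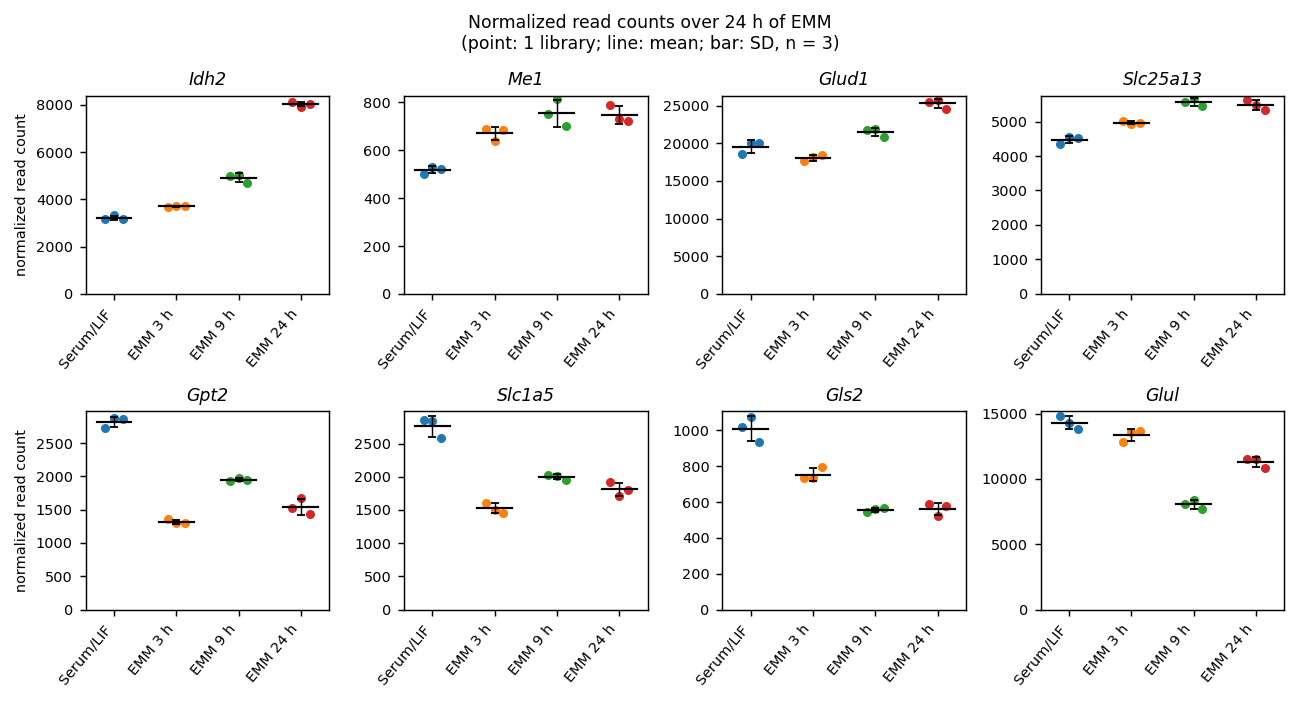
Normalized read counts (vertical axis, from 0) of 8 members in Serum/LIF and after 3, 9 and 24 h of EMM; each point is 1 library, lines are means and bars the SD of 3 libraries. Idh2, Me1, Glud1 and Slc25a13 end above Serum/LIF and Gpt2, Slc1a5, Gls2 and Glul below it, with the lowest points at 3 h for Gpt2 and Slc1a5 and at 9 h for Glul.

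At 9 h, 9 members were higher and 9 lower, beside 18.5% and 19.7% of all genes, and none of the members was past a log2 fold change of 1 in size, beside 2.05% of all genes upwards and 3.5% downwards. At 24 h, 10 were higher and 11 lower, beside 21.8% and 22.2% of all genes, and Idh2 alone of the 33 was past that size, upwards, beside 3.5% of all genes upwards and 4.69% downwards. The members' medians were 0.04 at 9 h and -0.01 at 24 h, and those of all genes were 0.00 at both times. At 9 h the members' median ran from 0.01 with library totals to 0.07 with no filter. At 24 h it ran from -0.04 without EMM 24 h replicate 1 to 0.02 with no filter, so its sign depends on the setting. Without EMM 9 h replicate 3, 11 members were higher and 9 lower at 9 h, beside 18.1% and 16.5% of all genes, and without EMM 24 h replicate 1 the counts at 24 h were 10 and 11, beside 21.2% and 20%. The 3 comparisons with Serum/LIF share their control libraries. Leaving out 1 library ended the 3 h calls of Idh3b (Serum/LIF replicate 3 or any 3 h library), Mdh1 (Serum/LIF replicate 1 or 3, or 3 h replicate 1 or 3) and Slc25a13 (3 h replicate 1), so that the higher members at 3 h numbered 3 without 3 h replicate 1, beside 13.4% of all genes. It also ended the calls of Glud1 at 9 h (Serum/LIF replicate 1, or 9 h replicate 1 or 2) and of Suclg1 at 24 h (Serum/LIF replicate 2 or 24 h replicate 3).

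Idh2, the mitochondrial NADP-dependent isocitrate dehydrogenase (chr7:80094846-80115392, minus strand), rose with time in EMM. It read 3174, 3319 and 3155 in Serum/LIF, 3684, 3734 and 3720.2 at 3 h, 4986, 5050.5 and 4692 at 9 h and 8130.4, 7923 and 8057 at 24 h. The groups did not overlap at any step. The log2 fold changes against Serum/LIF were 0.21 ± 0.04, 0.61 ± 0.04 and 1.32 ± 0.04, with adjusted p = 0.000302, 6.42e-09 and 1.17e-12. From 3 h to 24 h, Idh2 rose by 1.11 ± 0.04 on the log2 scale (adjusted p = 3.54e-11), the largest difference of any member between these times. Its cytosolic counterpart Idh1, which also makes NADPH, read 3539.6, 3967 and 3969 in Serum/LIF and 5478, 5796 and 5386 at 24 h. These libraries did not overlap (log2 fold change 0.54 ± 0.04 SE, adjusted p = 1.14e-07), and Idh1 was not called at 3 h (adjusted p = 0.08).

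At 24 h, 4 of the 16 TCA cycle genes were higher (Idh2, Idh3b and the cytosolic Idh1 and Mdh1) and 3 lower (Suclg1, Suclg2 and Fh1), beside 21.8% and 22.2% of all genes, so these counts were near those of all genes. Cs, encoding citrate synthase, which forms citrate from acetyl-CoA and oxaloacetate, was called higher at 9 h (log2 fold change 0.16 ± 0.03) and not at 24 h (0.07 ± 0.03). Of the subunits of the NAD-dependent isocitrate dehydrogenase, Idh3b had log2 fold changes of 0.16 ± 0.04, 0.18 ± 0.04 and 0.30 ± 0.04 at the 3 times, while Idh3a and Idh3g were not called at any time. Aco1, the cytosolic aconitase that doubles as an iron sensor, and the 3 genes of the α-ketoglutarate dehydrogenase complex, Ogdh, Dlst and Dld, were also not called, with log2 fold changes between -0.11 and 0.13 at all 3 times. Succinyl-CoA synthetase pairs the subunit encoded by Suclg1 with either an ADP-forming subunit (Sucla2) or a GDP-forming one (Suclg2). Suclg2 read 2311, 2347 and 2288 in Serum/LIF and 1606, 1600.4 and 1523 at 24 h, and fell without overlap (log2 fold change -0.55 ± 0.04 SE, adjusted p = 3.55e-08). Sucla2 was not called at any time, with a log2 fold change of 0.09 ± 0.05 at 24 h, and Suclg1 was called lower at 24 h (-0.17 ± 0.04). Fh1, encoding fumarase, read 4309, 4522 and 4421 in Serum/LIF and 3402, 3278 and 3153 at 24 h, again without overlap (log2 fold change -0.43 ± 0.04 SE, adjusted p = 1.14e-07). At the last step of the cycle, Mdh2 was not called at any time (log2 fold change -0.01 ± 0.04 at 24 h), whereas the cytosolic Mdh1 was called higher at each (0.14 ± 0.04, 0.27 ± 0.04 and 0.24 ± 0.04).

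Malic enzymes convert malate to pyruvate. Me1, the cytosolic NADP-dependent enzyme, read 503, 532 and 523 in Serum/LIF, 687, 640.3 and 685 at 3 h and 789.7, 731 and 720.5 at 24 h. Its EMM libraries were all above those of Serum/LIF (log2 fold change 0.52 ± 0.06 SE, adjusted p = 5.84e-06). Me2, the mitochondrial enzyme, was not called at 3 h or 9 h and fell at 24 h from 3325, 3501 and 3476 in Serum/LIF to 2671, 2779 and 2662 (log2 fold change -0.35 ± 0.04 SE, adjusted p = 2.46e-06). Of the transaminases besides Gpt2, the mitochondrial aspartate aminotransferase Got2 fell (log2 fold change -0.25 ± 0.04 at 9 h and -0.38 ± 0.04 at 24 h) and the cytosolic Got1 was called higher at 24 h (0.17 ± 0.04). Gpt was lower at 9 h and 24 h (-0.52 ± 0.09 and -0.77 ± 0.09), with 132, 125 and 132 counts at 24 h beside 226, 208 and 229 in Serum/LIF.

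Of the 5 mitochondrial carriers, 3 were called higher at 24 h, beside 21.8% of all genes. Slc25a13, the aspartate-glutamate carrier known as citrin, read 4351, 4544 and 4509 in Serum/LIF and 5625, 5493 and 5335 at 24 h (log2 fold change 0.30 ± 0.03 SE, adjusted p = 3.66e-06). No library of 1 group reached the range of the other. Slc25a1, the citrate carrier, and Slc25a10 had log2 fold changes of 0.27 ± 0.04 and 0.27 ± 0.06. Slc25a12, the second aspartate-glutamate carrier, and Slc25a11, which exchanges malate for α-ketoglutarate, were not called at any time. Exons of Slc25a11 overlap those of Rnf167 on the opposite strand by 189 bases, and Slc25a12 shares a run of 247 bases at 99.6% identity with Adpgk.

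**Figure D3:**
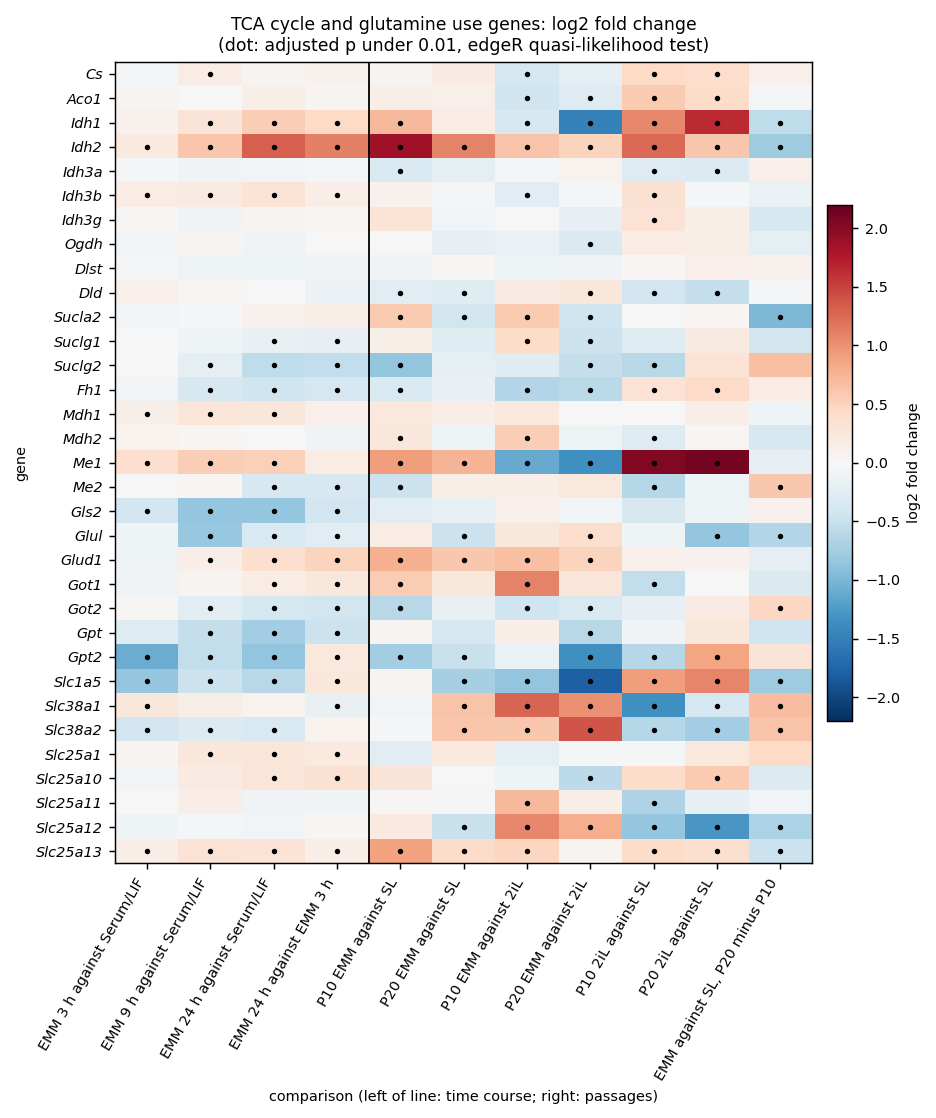
Log2 fold change (color) of the 33 tested members (rows) in each of the 11 comparisons (columns), with a dot where the adjusted p was under 0.01 by edgeR's quasi-likelihood test. Idh2 is higher in EMM in every column that sets EMM against Serum/LIF or 2iL, from 0.21 at 3 h to 1.87 at P10, and Me1 is higher in 2iL than in SL by 2.03 and 2.10.

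From 3 h to 24 h of EMM, 10 members were higher and 9 lower, beside 20.8% and 19.2% of all genes, and the medians were 0.04 for the members and 0.01 for all genes. With library totals as the scale, the split was 14 higher and 8 lower, beside 25.4% and 15.7% of all genes, with medians of 0.09 for the members and 0.07 for all genes. Idh2 was past a log2 fold change of 1, beside 2.34% of all genes upwards and 2.11% downwards. The next largest difference was that of Suclg2, with 2216, 2245 and 2424 counts at 3 h and the 24 h counts given above (log2 fold change -0.54 ± 0.04 SE, adjusted p = 8.59e-08). The others were smaller. Fh1, Got2, Me2, Gls2, Gpt and Glul were lower at 24 h than at 3 h, and Idh1, Slc25a10, Got1 and Slc25a1 were higher, with log2 fold changes between -0.48 and 0.44. Leaving out 1 library ended the calls of Idh3b (any 3 h library, or 24 h replicate 1 or 3), Slc38a1 (3 h replicate 1 or 3, or 24 h replicate 2 or 3), Slc25a13 (3 h replicate 3 or 24 h replicate 2) and Gpt2 (24 h replicate 2).

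After 10 and 20 passages, EMM cultures had more transcript of Idh2, Me1, Glud1 and Slc25a13 than SL cultures and less of Gpt2 and Dld. Of 33 members tested at P10, 8 were higher in EMM and 7 lower, beside 18.7% of all 16054 genes in each direction, and the medians were 0.06 for the members and 0.01 for all genes. The members' median at P10 was -0.02 under the stricter filter on low counts, beside 0.00 for all genes, and 0.13 without P10 SL replicate 1, beside 0.02. Library totals moved both medians by a similar amount, to -0.04 for the members and -0.09 for all genes. At P20, 6 were higher and 6 lower, beside 13.6% and 12.5% of all genes, with medians of -0.05 and 0.00, and library totals moved these to -0.14 and -0.09. The members' median at P20 was -0.10 under the stricter filter, beside -0.01 for all genes, and -0.10 without P20 SL replicate 2, beside -0.003. A fit of only the 2 groups compared gave 9 higher and 10 lower at P20, beside 20.6% and 19.7% of all genes. Sucla2 was called at both passages, in opposite directions. At both passages Idh2 was the 1 member past a log2 fold change of 1, beside 6.67% of all genes higher and 10.5% lower by that much at P10 and 3.44% and 6.19% at P20. The fibroblast marker sum given above was lower in EMM at both passages. In the separate time course, Idh2, Me1, Glud1 and Slc25a13 were called higher at 24 h and Gpt2 lower. The lower members at P10 numbered 4 without P10 EMM replicate 3, beside 15.4% of all genes, since the calls of Idh3a, Dld and Fh1 then ended. The call of Idh3a also ended without P10 SL replicate 1, and that of Mdh2 without any EMM library or SL replicate 2 or 3.

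Idh2 read 1370.5, 1363 and 1215 normalized read counts in P10 SL and 4648, 4859.8 and 4907 in P10 EMM (log2 fold change 1.87 ± 0.07 SE, adjusted p = 1.04e-12). At P20 it read 1308, 1296 and 1204 in SL and 2628, 2651 and 2814 in EMM (log2 fold change 1.09 ± 0.07 SE, adjusted p = 2.74e-09). The EMM libraries lay above the SL libraries at both passages, by less at P20. Me1 read 548, 600.2 and 561 in P10 SL and 1001, 1091 and 1150.0 in P10 EMM (log2 fold change 0.92 ± 0.08 SE, adjusted p = 2.8e-08). Its P20 counts were 429.6, 447 and 433 in SL and 711, 739.7 and 747 in EMM (log2 fold change 0.75 ± 0.08 SE, adjusted p = 9.97e-07). The groups did not overlap at either passage. A processed pseudogene of Me1, Gm7049, with 98.5% identity over 1638 bases, had a mean of 3.66% of the Me1 count in this experiment, so a part of these reads could have been assigned to either.

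Slc25a13 read 1654, 1779 and 1751 in P10 SL and 3235, 3206 and 3120.0 in P10 EMM (log2 fold change 0.88 ± 0.07 SE, adjusted p = 8.6e-09), with no overlap. At P20 the log2 fold change was 0.42 ± 0.07. Glud1 read 9008, 8614 and 8806 in P10 SL and 14513, 15186 and 15598 in P10 EMM, and 6791, 6972 and 6899 and 10079.6, 10222 and 10697 at P20. Its EMM libraries were above the SL libraries at both passages (log2 fold changes 0.78 ± 0.06 and 0.59 ± 0.06). Gpt2 read 1032, 1181 and 1094 in P10 SL and 637, 644 and 659.7 in P10 EMM (log2 fold change -0.77 ± 0.10 SE, adjusted p = 5.3e-06). At P20 it read 1280.4, 1241 and 1199 and 1001, 817 and 842 (log2 fold change -0.49 ± 0.10 SE, adjusted p = 0.000704), and EMM was the lower group at both passages. Dld, which encodes the dihydrolipoamide dehydrogenase shared by several dehydrogenase complexes, had log2 fold changes of -0.23 ± 0.07 and -0.27 ± 0.06. Its call also ended without P10 EMM replicate 1 or any P10 SL library, and at P20 without EMM replicate 1 or 2 or SL replicate 1 or 3.

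Other members were called at 1 of the passages. At P10, Idh1 (log2 fold change 0.71 ± 0.07), Got1 (0.56 ± 0.08) and Mdh2 (0.26 ± 0.08) were higher in EMM, and Suclg2 (-0.87 ± 0.13), Got2 (-0.62 ± 0.08), Me2 (-0.47 ± 0.08), Fh1 (-0.33 ± 0.07) and Idh3a (-0.33 ± 0.08) were lower. A processed pseudogene, Gm15163, had a mean of 4.27% of the Suclg2 count. The plasma membrane carriers were not called at P10, with log2 fold changes of 0.06 ± 0.10 for Slc1a5, -0.06 ± 0.09 for Slc38a1 and -0.03 ± 0.09 for Slc38a2. At P20 all 3 were called, 2 higher and 1 lower, beside 13.6% and 12.5% of all genes. Slc1a5 read 1038, 1134 and 1052 in SL and 674, 623 and 651 in EMM (log2 fold change -0.73 ± 0.10 SE, adjusted p = 2.18e-05). Slc38a2 read 6197, 6643 and 6551 in SL and 10040.5, 9699 and 9861 in EMM (log2 fold change 0.61 ± 0.09 SE, adjusted p = 5.75e-05). Slc38a1 read 2273, 2504 and 2563 and 3810.4, 3673 and 3795 (log2 fold change 0.62 ± 0.09 SE, adjusted p = 2.25e-05). In P20 EMM Slc1a5 was lower and the Slc38 pair higher than in SL, with no overlap between groups for any of the 3. Glul (-0.48 ± 0.10) and Slc25a12 (-0.48 ± 0.09) were also lower in P20 EMM.

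**Figure D4:**
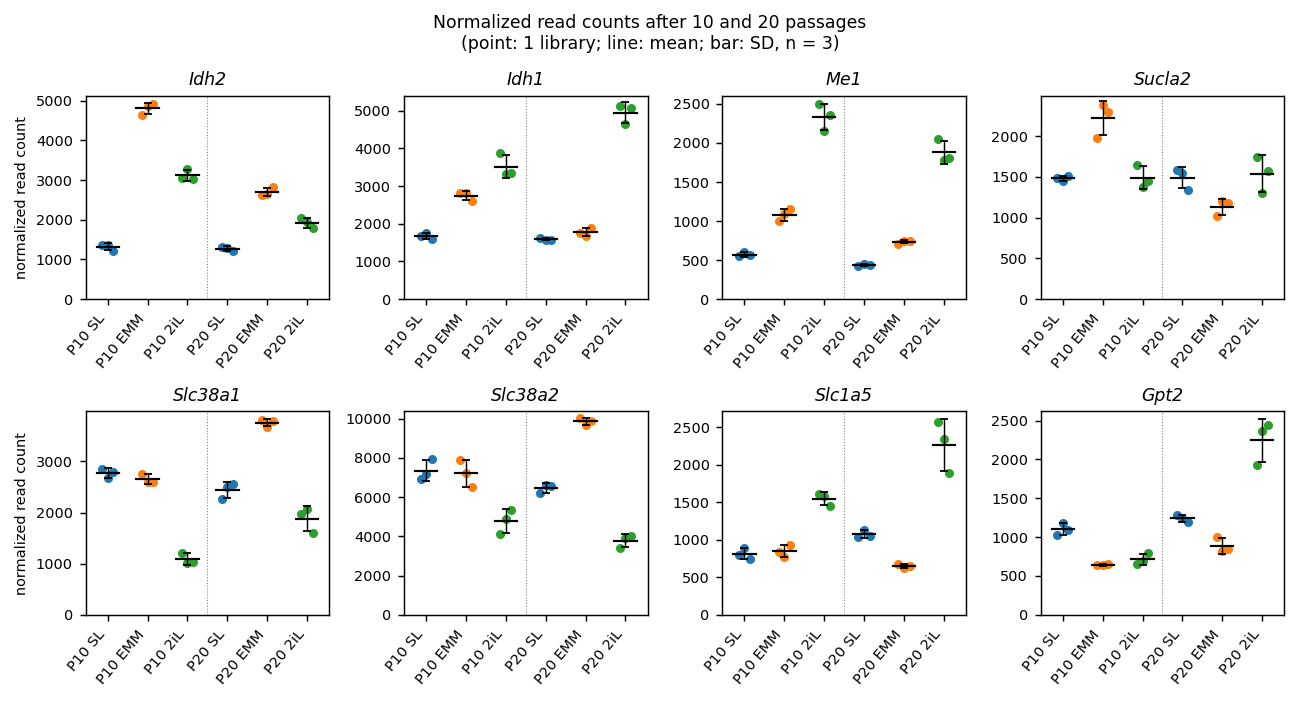
Normalized read counts (vertical axis, from 0) of 8 members after 10 and 20 passages in SL (blue), EMM (orange) and 2iL (green); each point is 1 library, lines are means and bars the SD of 3 libraries. Idh2 is highest in EMM at both passages, Me1 and Idh1 are highest in 2iL, and Sucla2 is above SL in P10 EMM and below it in P20 EMM.

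The difference between passages was itself tested, as the EMM effect at P20 minus that at P10. Of 33 members, 4 had a higher and 7 a lower effect at P20, beside 8.28% and 6.43% of all genes, and the medians were -0.15 for the members and -0.01 for all genes. The members' median was -0.05 with no filter on low counts, beside 0 for all genes, and -0.10 without P20 SL replicate 1, beside -0.02. None was past a log2 difference of 1, beside 5.06% of all genes higher and 3.34% lower by that much. Sucla2, the ADP-forming subunit gene (chr14:73525319-73596142, plus strand), differed most. It read 1487, 1447 and 1506 in P10 SL and 1981, 2375 and 2295 in P10 EMM, all higher in EMM (log2 fold change 0.58 ± 0.11). At P20 it read 1583, 1551 and 1338 in SL and 1014, 1199 and 1174 in EMM, all lower in EMM (-0.40 ± 0.11). The difference was -0.98 ± 0.15 on the log2 scale (adjusted p = 0.000106), although the P20 call itself ended without any 1 of the P20 EMM libraries or P20 SL replicate 1 or 2.

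Slc1a5 (-0.79 ± 0.15), Idh2 (-0.78 ± 0.10), Slc25a12 (-0.70 ± 0.13), Glul (-0.64 ± 0.14), Idh1 (-0.56 ± 0.10) and Slc25a13 (-0.46 ± 0.10) were the other members with a lower effect at P20. The adjusted p was 0.000623 for Slc1a5 and 1.26e-05 for Idh2. Slc38a1 (0.68 ± 0.12), Slc38a2 (0.64 ± 0.13), Me2 (0.60 ± 0.12) and Got2 (0.46 ± 0.11) had a higher effect. Me1, Glud1 and Gpt2 were not called for a difference between passages (log2 differences -0.17 ± 0.11, -0.19 ± 0.08 and 0.28 ± 0.14). The call of Got2 ended without 9 of the 12 libraries compared, the exceptions being P10 EMM replicate 1, P10 SL replicate 2 and P20 EMM replicate 3, and that of Glul ended without P20 EMM replicate 3.

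Against 2iL, EMM cultures had more transcript of the Slc38 carriers, Slc25a12 and Glud1 and less of Me1, Idh1 and Slc1a5 at both passages. At P10, 11 members were higher in EMM and 8 lower, beside 22.9% and 22.2% of all genes, with medians of 0.11 for the members and 0.01 for all genes. The members' median was -0.05 without P10 EMM replicate 1 and 0.02 without P10 EMM replicate 2, so its sign rests on 1 library. At P20, 7 were higher and 13 lower, beside 25.7% and 22.9% of all genes, with medians of -0.08 and 0.02. Past a log2 fold change of 1 stood 3 higher and 1 lower member at P10, beside 11% of all genes in each direction, and 1 higher and 4 lower at P20, beside 16% and 9.39%. The medians of all genes on chromosomes 6 and 8 were -0.34 and -0.29 in the P20 comparison, which touches Suclg1, Suclg2 and Slc25a13 on chromosome 6 and Got2 and Gpt2 on chromosome 8. The part of these shifts in the members' values was not tested, and without those 5 members 7 were higher and 9 lower. Without P20 2iL replicate 1, 7 members were higher and 12 lower at P20, beside 23.7% and 21.5% of all genes, and without P10 2iL replicate 1, 12 were higher and 7 lower at P10, beside 22.3% in each direction.

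Slc38a1 read 1218, 1009 and 1035 in P10 2iL, beside 2761, 2601 and 2593 in P10 EMM (log2 fold change 1.29 ± 0.09 SE, adjusted p = 1.23e-09). At P20 its log2 fold change was 1.00 ± 0.09. Slc38a2 read 3405, 3915 and 4022 in P20 2iL, against the P20 EMM counts given above (log2 fold change 1.38 ± 0.10 SE, adjusted p = 6.7e-10), and its P10 log2 fold change was 0.59 ± 0.09. For both transporters the 2iL libraries were the lowest of the 3 media at each passage. Both genes lie on chromosome 15, whose genes had medians of 0.19 at P10 and 0.11 at P20 in EMM against 2iL. In 2iL against SL these medians were -0.18 and -0.08. The part of these shifts in the values of the 2 genes was not tested. Slc25a12 read 356, 356 and 450.4 in P10 2iL and 779.6, 787 and 889 in P10 EMM (log2 fold change 1.06 ± 0.10 SE, adjusted p = 5.43e-08), and the groups were apart. Got1 read 2899, 2755 and 2517 in P10 2iL and 5225, 5701 and 6501 in P10 EMM (log2 fold change 1.09 ± 0.08 SE, adjusted p = 4.45e-09). At P20 it was not called (log2 fold change 0.26 ± 0.08, adjusted p = 0.0121).

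Me1 was the member with the highest 2iL counts relative to EMM at P10, with 2494, 2159.6 and 2352 in P10 2iL (log2 fold change -1.12 ± 0.08 SE, adjusted p = 9.47e-10) and 2046, 1783 and 1811 in P20 2iL (log2 fold change -1.36 ± 0.08 SE, adjusted p = 4.71e-11). Its order was SL, EMM, 2iL from lowest to highest at both passages, with no overlap. Slc1a5 read 2566, 2339 and 1886 in P20 2iL, far above the P20 EMM libraries (log2 fold change -1.80 ± 0.10 SE, adjusted p = 5.62e-11), with a log2 fold change of -0.87 ± 0.10 between the P10 groups. Idh1 read 5139, 4644 and 5072 in P20 2iL and 1756, 1674 and 1887 in P20 EMM (log2 fold change -1.48 ± 0.07 SE, adjusted p = 8.72e-12), and differed by -0.35 ± 0.07 at P10. Gpt2, on chromosome 8, read 1929, 2367 and 2443 in P20 2iL (log2 fold change -1.35 ± 0.10 SE, adjusted p = 1.38e-09) and was not called at P10 (log2 fold change -0.15 ± 0.10). The 2iL libraries of these genes did not overlap with those of EMM at P20.

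Among the other members, Idh2 and Glud1 were higher in EMM than in 2iL (log2 fold changes 0.62 ± 0.07 and 0.67 ± 0.06 at P10, 0.49 ± 0.07 and 0.48 ± 0.06 at P20). Fh1 (-0.65 ± 0.07 and -0.59 ± 0.07), Aco1 (-0.44 ± 0.07 and -0.28 ± 0.07) and Got2 (-0.43 ± 0.08 and -0.34 ± 0.08) were lower at both. Sucla2 and Suclg1, 2 subunits of 1 enzyme, were higher in EMM at P10 (0.57 ± 0.11 and 0.40 ± 0.12) and lower at P20 (-0.44 ± 0.11 and -0.47 ± 0.12). Slc25a11 (0.71 ± 0.11), Mdh2 (0.53 ± 0.08) and Slc25a13 (0.48 ± 0.07) were called higher at P10, and Cs (-0.38 ± 0.07) lower. At P20 Ogdh (-0.31 ± 0.07) was called lower and Dld (0.26 ± 0.07) higher. Leaving out 1 library ended the P10 calls of Idh3b (any library) and Suclg1 (replicate 2 or 3 of either group), and the P20 calls of Gpt (any library), Aco1 (2iL replicate 2, or EMM replicate 1 or 3), Dld (2iL replicate 1 or EMM replicate 3), Sucla2 (replicate 1 of either group), Slc25a10 (2iL replicate 2, or EMM replicate 2 or 3), Suclg1 (2iL replicate 1) and Glul (2iL replicate 2 or 3, or EMM replicate 1 or 2).

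Between 2iL and SL, the largest differences of any member were those of Me1 at P10 and of Me1 and Idh1 at P20, both encoding cytosolic enzymes that make NADPH. In 2iL, 10 members were higher and 11 lower at P10, beside 26.4% and 25.6% of all genes, and 10 were higher and 6 lower at P20, beside 21% and 23.2%. The members' medians were -0.03 and 0.13, and those of all genes 0.02 and -0.01. Past a log2 fold change of 1 stood 3 higher and 1 lower member at each passage, beside 11.6% and 14.8% of all genes at P10 and 6.77% and 15.5% at P20. Scaling by library totals moved the median of all genes to -0.12 and that of the members to 0.01 at P20. At P10 the members' median ran from -0.13 with no filter to 0.02 without P10 SL replicate 1, so its sign and size depend on the setting. Without P20 2iL replicate 1, 11 members were higher and 5 lower at P20, beside 19.9% and 21.6% of all genes, and without P10 2iL replicate 1 the counts at P10 were 10 and 11, beside 25.8% and 24.8%. On chromosomes 6 and 8, the medians of all genes were 0.33 and 0.45 at P20, and without the 5 members there 8 were higher and 6 lower. The SL libraries of these comparisons are those set against EMM.

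Me1 had the largest change, with the 2iL and SL counts given above (log2 fold change 2.03 ± 0.08 SE, adjusted p = 3.97e-13 at P10 and log2 fold change 2.10 ± 0.08 SE, adjusted p = 5.7e-13 at P20). Idh1 read 1684, 1757 and 1594 in P10 SL and 3868, 3313 and 3361 in P10 2iL (log2 fold change 1.06 ± 0.07 SE, adjusted p = 7.13e-10), and 1625, 1581 and 1564 in P20 SL, where the 2iL counts above were higher still (log2 fold change 1.64 ± 0.07 SE, adjusted p = 3.96e-12). Every 2iL library was above every SL library for both genes. Idh2 read 3054, 3288 and 3036 in P10 2iL, above its SL counts (log2 fold change 1.25 ± 0.07 SE, adjusted p = 4.76e-11), and 2035, 1948 and 1779.8 in P20 2iL (log2 fold change 0.60 ± 0.07 SE, adjusted p = 9.83e-07). Slc1a5 was also higher in 2iL, with log2 fold changes of 0.92 ± 0.10 at P10 and 1.07 ± 0.10 at P20. Slc38a1 was lower in 2iL at P10, with 2859.6, 2677 and 2785 counts in SL (log2 fold change -1.35 ± 0.09 SE, adjusted p = 4.48e-10), and less so at P20 (-0.38 ± 0.09). Slc25a12 read 963, 973 and 853 in P20 SL and 378, 401 and 371 in P20 2iL, with no overlap (log2 fold change -1.28 ± 0.10 SE, adjusted p = 4.43e-09).

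At both passages, Cs (0.44 ± 0.07 and 0.38 ± 0.07), Aco1 (0.58 ± 0.07 and 0.40 ± 0.07) and Fh1 (0.32 ± 0.07 and 0.42 ± 0.07) were higher in 2iL, and Dld (-0.41 ± 0.07 and -0.53 ± 0.07), Idh3a (-0.28 ± 0.08 and -0.30 ± 0.08) and Slc38a2 (-0.62 ± 0.09 and -0.77 ± 0.09) were lower. Gpt2 was lower in 2iL at P10 (-0.62 ± 0.10) and higher at P20 (0.86 ± 0.10). Glud1, which was higher in EMM, was not called between 2iL and SL (0.11 ± 0.06 and 0.10 ± 0.06). Glul was lower in 2iL at P20 (-0.86 ± 0.10) and not called at P10 (-0.09 ± 0.10). Dlst, encoding the succinyl-transferring subunit of the α-ketoglutarate dehydrogenase complex, was not called in any of the 11 comparisons, with log2 fold changes between -0.11 and 0.11. Leaving out 1 library ended the P10 calls of Idh3g (2iL replicate 2 or 3, or any SL library), Idh3a (any library) and Mdh2 (2iL replicate 2 or 3, or SL replicate 1), and the P20 calls of Idh3a (2iL replicate 1, or SL replicate 1 or 2) and Slc25a10 (2iL replicate 2, or SL replicate 1 or 2).

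Paired genes of cytosol and mitochondrion, or of alternative subunits, were set against each other as ratios of their levels per length, as a description. The ratio of Idh2 to Idh1 was 0.902 ± 0.0549 (SD, n = 3) in Serum/LIF and 1.55 ± 0.0764 at 24 h, with libraries apart. In the passage experiment it was 0.839 ± 0.0288 in P10 SL, 1.87 ± 0.122 in P10 EMM and 0.959 ± 0.109 in P10 2iL. At P20 the ratio was 0.855 ± 0.0275 in SL, 1.63 ± 0.0557 in EMM and 0.416 ± 0.0373 in 2iL. Idh2 was the higher of the pair in every EMM library of both passages, and the ratio was lowest in P20 2iL. The ratio of Me2 to Me1 went from 3.51 ± 0.0186 in Serum/LIF to 1.92 ± 0.116 at 24 h. After passages it ran from 1.74 ± 0.122 in P20 SL down to 0.216 ± 0.0164 in P10 2iL.

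Sucla2 to Suclg2 had a ratio of 2.07 ± 0.133 in Serum/LIF and 3.23 ± 0.222 at 24 h. It was 0.938 ± 0.0486 in P10 SL and 2.58 ± 0.283 in P10 EMM, but 0.994 ± 0.0762 and 0.875 ± 0.0634 at P20, where the libraries overlapped. The ratio of the 2 aspartate-glutamate carriers, Slc25a13 to Slc25a12, was lowest in SL (4.78 ± 0.383 at P10 and 3.71 ± 0.0493 at P20), intermediate in EMM (7.56 ± 0.675 and 6.94 ± 0.251) and highest in 2iL (11.6 ± 1.81 and 11.5 ± 0.665). For the malate dehydrogenases, Mdh2 to Mdh1 moved from 1.30 ± 0.00960 to 1.09 ± 0.0361 over 24 h. Got2 to Got1 moved from 0.260 ± 0.00206 to 0.178 ± 0.00581, without overlap in either pair. Gpt2 to Gpt was 6.65 ± 0.470 in Serum/LIF, 3.82 ± 0.269 at 3 h and 6.23 ± 0.693 at 24 h, so it was low at 3 h and overlapped with Serum/LIF at 24 h.

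**Figure D5:**
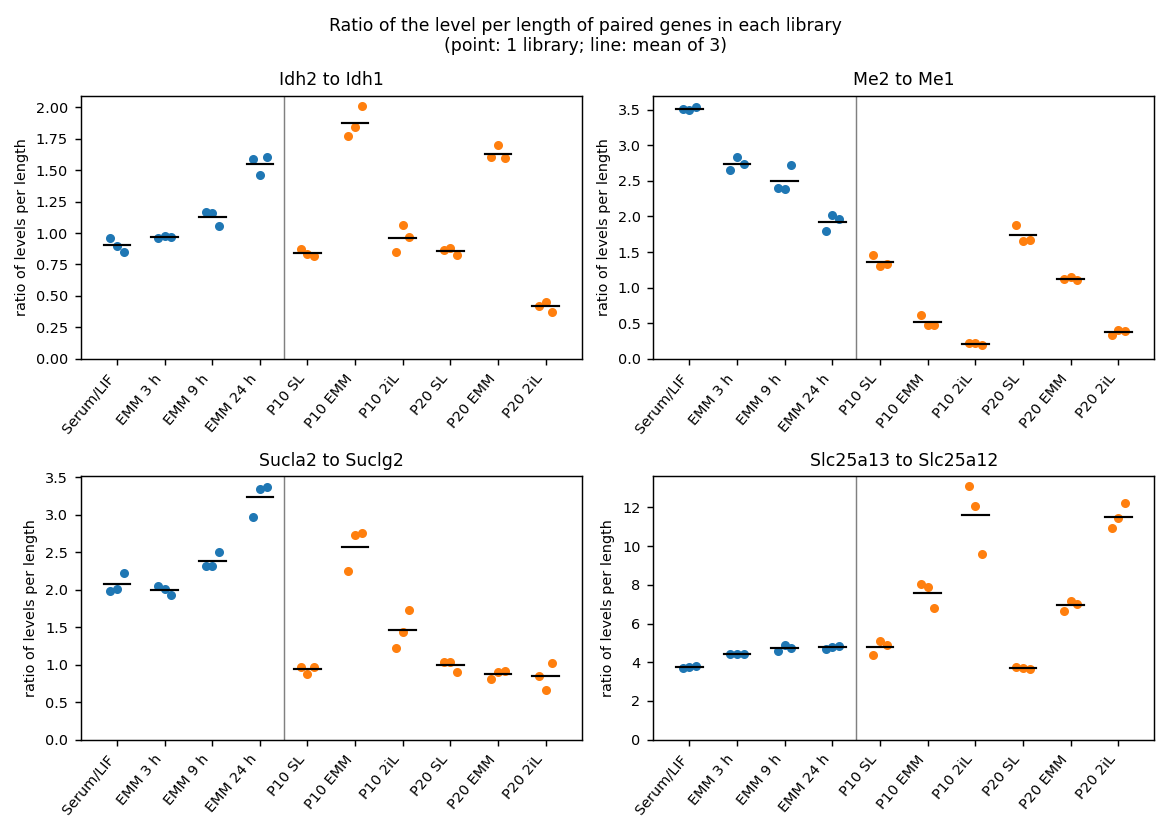
Ratio of levels per length (vertical axis, from 0) of 4 gene pairs in each library of the time course (blue) and the passage experiment (orange); lines are means of 3 libraries. The ratio of Idh2 to Idh1 rises from 0.902 ± 0.0549 in Serum/LIF to 1.55 ± 0.0764 at 24 h and is lowest in P20 2iL, and the ratio of Slc25a13 to Slc25a12 is highest in 2iL.

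A further 44 genes of glutamine, glutamate and TCA-linked metabolism, none of them a member, were counted for comparison. Of 41 tested in the time course, 5 were higher and 12 lower at 3 h, beside 16.3% and 18.2% of all genes, 11 and 15 at 9 h, beside 18.5% and 19.7%, and 13 and 18 at 24 h, beside 21.8% and 22.2%. At 24 h the parts of this list went different ways. Of 10 genes of the TCA cycle and its refilling, 8 were higher and 1 lower (median log2 fold change 0.18). Of 11 genes of glutamate, proline and other transaminases, 1 was higher and 9 lower (median -0.42). The counts were 3 and 3 of 9 for transport and hydrolysis, 1 and 4 of 9 for glutamine-consuming synthesis and 0 and 1 of 2 for the glycerol phosphate shuttle. The neutral amino acid carriers Slc1a4 (-1.30 ± 0.07) and Slc38a3 (-1.27 ± 0.14) fell past a log2 fold change of 1 at 3 h. Pck2, the mitochondrial phosphoenolpyruvate carboxykinase (-1.33 ± 0.06), Aldh18a1, which starts proline synthesis from glutamate (-1.20 ± 0.04), and Psat1, a transaminase of serine synthesis that uses glutamate (-1.15 ± 0.04), fell at 9 h. At 24 h the largest changes past both thresholds were those of Psat1 (-1.59 ± 0.04), Pck2 (-1.58 ± 0.06) and Slc38a3 (-1.58 ± 0.15). The glutamate carrier Slc1a1 was the 1 gene of this list that rose past a log2 fold change of 1, at 9 h (1.05 ± 0.14) and 24 h (1.24 ± 0.14), and is named after its values were seen.

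Of 42 of these genes tested in the passage experiment, 11 were higher and 12 lower in P10 EMM than in SL, beside 18.7% and 18.7% of all genes, and 9 and 10 at P20, beside 13.6% and 12.5%. The largest changes past both thresholds at P10 were falls of Psat1 (-2.47 ± 0.07) and of the aspartate aminotransferase relative Got1l1 (-2.37 ± 0.23) and a rise of Slc1a1 (2.30 ± 0.30). At P20 they were a fall of the glutamine carrier Slc38a5, which stood at no more than 2.24 normalized read counts in EMM and at 7.35 to 26.3 in SL, a fall of Got1l1 (-1.61 ± 0.20) and a rise of Pcx, the pyruvate carboxylase that supplies oxaloacetate to the cycle (1.41 ± 0.11). The EMM effect at P20 was lower than at P10 for Slc1a1 (-2.39 ± 0.42) and higher for Slc38a3 (2.30 ± 0.34) and Psat1 (1.25 ± 0.10).

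Against 2iL, 11 were higher and 14 lower in EMM at P10, beside 22.9% and 22.2%, and 8 and 18 at P20, beside 25.7% and 22.9%. Slc38a3 was higher in EMM at both passages (3.00 ± 0.37 and 3.93 ± 0.29), and Oat, the ornithine aminotransferase, was lower at both (-3.27 ± 0.11 and -2.84 ± 0.10). Gfpt2, which uses glutamine to start hexosamine synthesis, was higher at P20 (2.60 ± 0.17). Gpd1, the cytosolic glycerol phosphate dehydrogenase, was lower at P10, with 28.3 to 37.8 counts in 2iL and at most 4.68 in EMM. In 2iL against SL, 16 were higher and 15 lower at P10, beside 26.4% and 25.6%, and 18 and 7 at P20, beside 21% and 23.2%. Slc38a3 was lower in 2iL at both (-3.89 ± 0.34 and -2.53 ± 0.30), as was Slc38a5, which was at 0 in every P10 2iL library and at 7.72 to 10.4 counts in P10 SL. Gfpt2 was lower at P20 (-2.38 ± 0.17) and Gpd1 higher at P10, from 4.63 to 8.68 counts in SL.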

How the data were processed

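RNA-seq libraries of the time course (12) and the passage experiment (18) were analyzed. The authors deposited whole-number counts per gene for the time course and expected counts, which are estimated counts per gene, for the passage experiment, and normalized neither. The submitters' processing notes name STAR, featureCounts and DESeq2 for the first, STAR, Salmon and DESeq2 for the second, and mm10 for both, whereas the methods of the study state alignment with STAR and counting with HTSeq. How strand and multiply mapping reads were handled is not given in the sources used here, and the passage kit marks strand. Values that were not whole, 9.982% in the passage data, were rounded. Samples were grouped and numbered by their titles. The EMM columns of the time course are numbered 2 to 4 in the deposited table where the titles have 1 to 3.

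Genes were kept with filterByExpr by group (16049 and 16054 genes), scaled with TMM and fitted with edgeR 4.0.16 (R 4.3.3), each experiment in 1 quasi-likelihood model without covariates. P-values were adjusted by Benjamini-Hochberg across the genes tested in each comparison. Members were called at an adjusted p under 0.01, and a log2 fold change over 1 in size was counted beside it. Normalized read counts are counts per effective library size, times the mean effective size of the experiment. Positions, exon lengths and overlaps came from GENCODE M21 (GRCm38), and near copies from blastn 2.17.0.

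The members and lists were chosen with earlier results of these data known. Members past both thresholds were named with values in each library, and otherwise the 3 of largest change among called members whose groups did not overlap. Of the other pathway genes, at most 3 per comparison past both thresholds were named. Within the comparisons made, the correlations showed no clear pairing of the samples by replicate number. Same-numbered libraries of different groups had median correlations of their deviations of 0.00672 in the time course and 0.00334 in the passage experiment, and 5 of 18 and 3 of 45 pairs were over 0.1. With the numbers of the columns, 5 of 15 time-course pairs were over 0.1 (median 0.0231), and a block by these numbers was not fitted. The 3 passage pairs were those of P10 2iL with P20 2iL (0.134 to 0.299, against -0.245 to 0.052 for unlike numbers), groups that no test sets against each other. The methods state that replicates came from independent experiments. Alternatives were DESeq2 1.42.0 (size factors, and its Wald test), library totals, no filter, at least 10 counts in every library, only the groups compared, the replicate block, and each library left out. The statistical script was tested on simulated data. Counting error is largest in the least deep libraries, and totals are given in the report.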

Additional observations from a re-analysis of the deposited data

Results flagged for a closer look

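For 19 members, the EMM effect at 24 h differed from that at 3 h by a test of the difference (edgeR's quasi-likelihood test, adjusted p under 0.01), 10 of them higher and 9 lower, beside 20.8% and 19.2% of all genes. The log2 differences were 1.11 for Idh2, 0.487 for Glud1, 0.436 for Idh1, 0.339 for Slc25a10, 0.249 for Slc1a5, 0.244 for Got1, 0.227 for Gpt2, 0.21 for Slc25a1, 0.147 for Idh3b and 0.144 for Slc25a13. They were -0.542 for Suclg2, -0.478 for Gpt, -0.425 for Gls2, -0.396 for Got2, -0.372 for Fh1, -0.356 for Me2, -0.243 for Glul, -0.179 for Suclg1 and -0.158 for Slc38a1. Gpt2 and Slc1a5 were lower than Serum/LIF at both times and closer to it at 24 h, and Suclg2, Fh1 and Got2 were called lower at 24 h and not at 3 h.

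For 11 members, the EMM effect against SL differed between P20 and P10 by the same test, 4 of them higher and 7 lower, beside 8.28% and 6.43% of all genes. The log2 differences were -0.981 for Sucla2, -0.788 for Slc1a5, -0.78 for Idh2, -0.704 for Slc25a12, -0.642 for Glul, -0.556 for Idh1 and -0.464 for Slc25a13, and 0.683 for Slc38a1, 0.635 for Slc38a2, 0.597 for Me2 and 0.457 for Got2.

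For 4 members, every library of 1 medium lay on 1 side of the other medium at P10 and on the opposite side at P20, and these differences between passages were not tested. The share of all genes that meet this rule was not computed, so the number is a description only. Between EMM and 2iL they were Sucla2, with log2 fold changes of 0.574 at P10 and -0.44 at P20, and Mdh2, with 0.534 and -0.116. Between 2iL and SL they were Suclg2, with -0.606 and 0.306, and Gpt2, with -0.623 and 0.861. The P20 values of Mdh2 (adjusted p = 0.196) and Suclg2 (adjusted p = 0.0452) carried no call. Suclg2 lies on chromosome 6 and Gpt2 on chromosome 8, whose genes had medians of 0.33 and 0.45 in P20 2iL against SL. Without P20 2iL replicate 1, which stood apart from its group, the P20 value was 0.958 for Gpt2 in 2iL against SL and -0.35 for Sucla2 in EMM against 2iL, the latter without a call (adjusted p = 0.0111).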

How the results depend on the processing

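Of 2432 recomputed values of called members, 2271 kept their direction and their call, 161 kept the direction without the call (109 without 1 library and 52 under other settings) and 0 reversed. With a log2 fold change over 1 required, counts of higher and lower members were 0 and 1 at 3 h (1.7% and 2.52% of all genes), 0 and 0 at 9 h (2.05% and 3.5%), and 1 and 0 at 24 h (3.5% and 4.69%) and from 3 h to 24 h (2.34% and 2.11%). For EMM against SL they were 1 and 0 at P10 (6.67% and 10.5%) and at P20 (3.44% and 6.19%). For EMM against 2iL they were 3 and 1 at P10 (11% and 11%) and 1 and 4 at P20 (16% and 9.39%). For 2iL against SL they were 3 and 1 at P10 (11.6% and 14.8%) and at P20 (6.77% and 15.5%). For the difference between passages they were 0 and 0 (5.06% and 3.34%). Library totals gave 3 higher and 10 lower at 3 h, beside 12% and 24% of all genes, and a fit of only the groups compared gave 9 higher and 10 lower for EMM against SL at P20, beside 20.6% and 19.7%. Without 1 library, the higher members at 3 h ranged from 3 to 6, beside 13.4% to 14.9% of all genes. The lower members in P10 EMM against SL ranged from 4 to 7, beside 14.8% to 15.4%.

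Replicate numbers are shared between groups and showed no clear pairing of the samples within the comparisons, although those of P10 2iL and P20 2iL went together (correlations 0.134 to 0.299). With the replicate block, counts of higher and lower members were 6 and 4 at 3 h (17.1% and 18.5% of all genes), 10 and 9 at 9 h (19.2% and 20.2%), 10 and 11 at 24 h (22.3% and 22.5%), and 8 and 6 for P10 EMM against SL (18.3% and 18%). In the passage data it ended the calls of Dld in P10 EMM against SL, Idh3b in P10 EMM and Gpt in P20 EMM against 2iL, and Idh3g at P10 and Slc25a10 at P20 in 2iL against SL. Depth limits the lowest members most, since Me3 was too low to test and Gpt stood at 50.8 to 229 counts.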
